A study of Rattus norvegicus with 45 samples.

Results

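The genes described are the 3 that make GABA and load it into synaptic vesicles, Gad1 (ENSRNOG00000000007), Gad2 (ENSRNOG00000018200) and Slc32a1 (ENSRNOG00000015393). They were taken by identifier from the 32883 genes measured in the ventral tegmental area (VTA) of the rat, and all 3 were among the 22570 genes that passed the filter on low values. All rats were male wild-type Sprague-Dawley rats of 250 to 275 g, and every rat underwent 10 d of self-administration, a viral injection into the VTA on day 11 and 30 d of abstinence. The groups differed in the drug, saline or heroin, and in the vector. The empty vector expressed GFP alone, H3.3WT expressed the wild-type histone variant H3.3, and H3.3Q5A expressed H3.3 with alanine in place of glutamine at position 5, which cannot be dopaminylated. All vectors carried GFP, which guided the 2 mm tissue punches, so all rats were infected and the saline empty rats were not untreated. The series text calls the vector lentiviral and the methods of the study call it AAV2. The groups held 7 saline empty, 7 saline H3.3WT, 7 saline H3.3Q5A, 8 heroin empty, 7 heroin H3.3WT and 8 heroin H3.3Q5A rats, 44 in all, with 1 polyA library for each rat. A further saline library names H3.3Q5A in its title and H3.3WT in its treatment, and it entered no group.

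GABA is the main inhibitory transmitter of the adult brain. Gad1 and Gad2 encode the glutamate decarboxylases that make it from glutamate, the Gad1 product being spread through the cell and the Gad2 product being enriched at axon terminals. Slc32a1 encodes the transporter that moves GABA, and in some neurons glycine, into synaptic vesicles. In the VTA, GABA neurons lie among dopamine neurons and inhibit them, and opioids act in part on GABA neurons and GABA terminals. In punched tissue, fewer GABA neurons and less RNA per neuron cannot be told apart.

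Whether the 3 genes moved together across rats was asked first, and their promoters are therefore shown beside that question. They are RefSeq sequences of the GRCr8 build, 300 bases each, from 250 before to 50 after the annotated start, and all 3 genes were matched by symbol. Capitals mark matches on either strand to TATAAA, to the box written CCAAT or to the GC-rich motif GGGCGG.
Gad1, chr3:75777202-75777501, plus strand: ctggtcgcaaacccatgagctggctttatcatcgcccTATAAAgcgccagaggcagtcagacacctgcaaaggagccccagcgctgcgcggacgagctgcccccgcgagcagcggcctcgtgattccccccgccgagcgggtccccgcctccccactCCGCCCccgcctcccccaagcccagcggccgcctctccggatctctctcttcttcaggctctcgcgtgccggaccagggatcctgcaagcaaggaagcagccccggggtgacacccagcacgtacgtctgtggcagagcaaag
Gad2, chr17:89671468-89671767, plus strand: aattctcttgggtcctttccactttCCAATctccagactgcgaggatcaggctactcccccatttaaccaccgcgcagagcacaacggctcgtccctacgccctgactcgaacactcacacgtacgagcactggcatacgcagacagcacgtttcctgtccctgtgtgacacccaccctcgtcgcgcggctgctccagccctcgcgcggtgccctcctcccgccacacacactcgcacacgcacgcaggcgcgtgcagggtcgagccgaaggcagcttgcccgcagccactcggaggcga
Slc32a1, chr3:167686995-167687294, plus strand: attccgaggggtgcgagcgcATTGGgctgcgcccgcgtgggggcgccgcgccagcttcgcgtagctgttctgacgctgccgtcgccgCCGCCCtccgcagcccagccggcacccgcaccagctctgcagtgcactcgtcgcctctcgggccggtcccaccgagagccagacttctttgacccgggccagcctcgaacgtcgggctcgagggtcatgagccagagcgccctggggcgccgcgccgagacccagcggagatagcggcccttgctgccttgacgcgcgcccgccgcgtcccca
In the Gad1 window TATAAA began at -213 on the plus strand and GGGCGG at -93 on the minus strand, counted with the start base as 0. The Gad2 window held CCAAT at -225 on the plus strand, and the Slc32a1 window held CCAAT at -230 and GGGCGG at -163, both on the minus strand. Of 33469 promoters of this length, 14.22% held TATAAA, 37.49% held CCAAT and 33.06% held GGGCGG, and no motif of these was in all of the windows shown. TGACGTCA, present in 1.83% of promoters, was in none of the 3 windows, and the short CANNTG, present in 72.1%, was in the Gad1 window alone, at -189. What the windows had in common was many CG dinucleotides, with 26 in Gad1, 29 in Gad2 and 42 in Slc32a1 against a median of 7 over all promoters, more than in 84.79%, 88.52% and 97.6% of them. These are matches of letters and were not tested for binding.

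All 3 genes were well measured in every library. The authors had stabilized the variance of the counts, which puts the deposited values on a scale close to log2, so that a difference of 1 is nearly a 2-fold change at this depth. The libraries held 24308953 to 71104049 reads on genes, of which Gad1 received 5818 to 35024, Gad2 8857 to 36904 and Slc32a1 3669 to 16892. Counting error is therefore small beside the spread between rats, and the mean level of each gene was above that of 94.8% or more of the genes tested. Across the 44 rats the highest value was above the lowest by 1.36 for Gad1, 1.62 for Gad2 and 1.34 for Slc32a1 on the log2-like scale, that is by 2.57-, 3.07- and 2.53-fold. Their SD over rats exceeded that of 93.8%, 93.1% and 94.8% of tested genes of like level.

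The 3 genes varied together from rat to rat. Gad1 and Gad2 had a Pearson r of 0.77 and a Spearman rho of 0.74 over 44 rats. For Gad2 and Slc32a1 r was 0.78 and rho 0.75, and for Gad1 and Slc32a1 r was 0.68 and rho 0.68. Each of these 6 values had a permutation p of 1e-05, the smallest that 100000 resamples can give, and an adjusted p of 1e-05 over the 3 pairs. Without the 2 rats farthest from the median of the first gene of the pair, r was 0.79, 0.76 and 0.67 in the same order.

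The relation did not rest on differences between groups. After each group mean was subtracted, r was 0.88 for Gad1 and Gad2, 0.78 for Gad2 and Slc32a1 and 0.76 for Gad1 and Slc32a1, each with a permutation p of 1e-05. Within the separate groups of 7 or 8 rats, r lay between 0.77 and 0.97 for Gad1 and Gad2, between 0.62 and 0.91 for Gad2 and Slc32a1 and between 0.46 and 0.94 for Gad1 and Slc32a1, so it was positive in all 6 groups for all 3 pairs. The values of 1 rat come from 1 punch and 1 library. The log2 number of reads per library had an r of 0.05 with Gad1, -0.18 with Gad2 and -0.15 with Slc32a1 (permutation adjusted p of 0.731, 0.304 and 0.381 over the 15 relations with depth and marker lists).

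**Figure D1:**
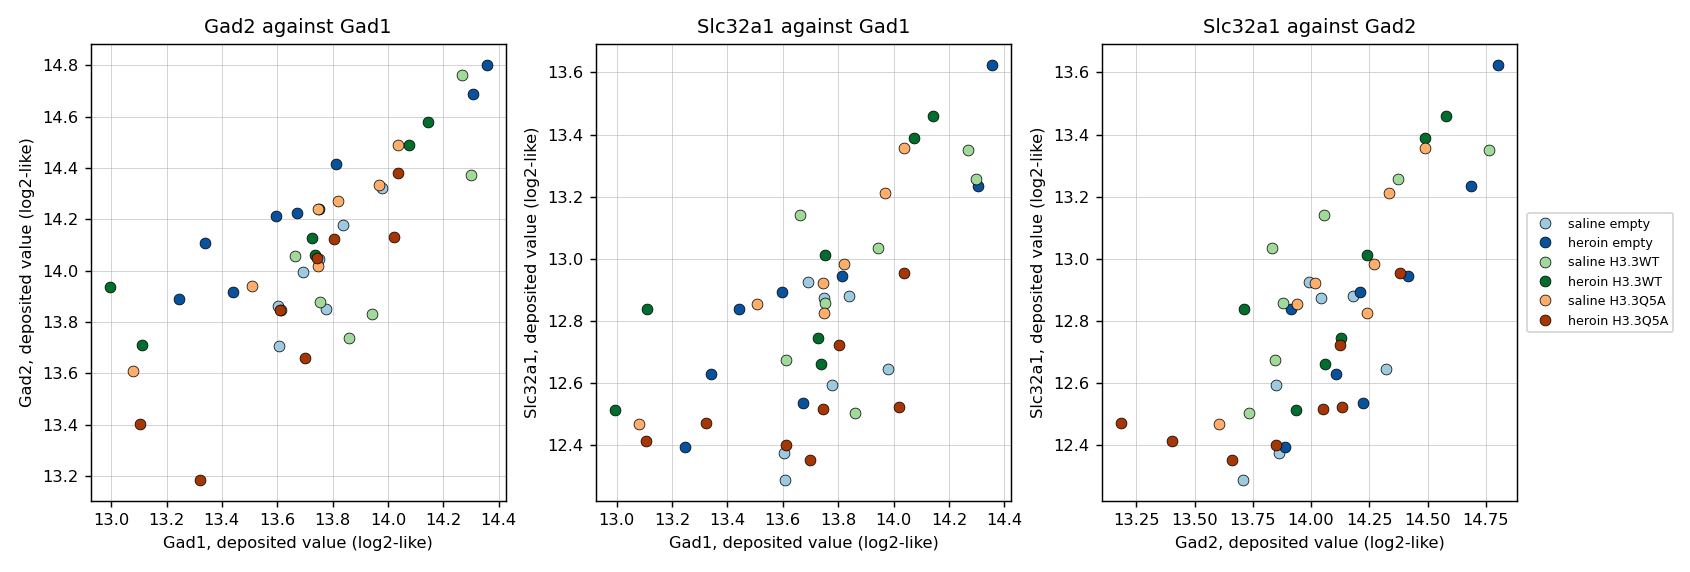
Each point is 1 of the 44 rats, coloured by group, with the deposited values (log2-like) of a pair of genes on the axes. Gad2 against Gad1, Slc32a1 against Gad1 and Slc32a1 against Gad2 rise together, with r of 0.77, 0.68 and 0.78, and r is positive within every group.

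Set against the other 22569 tested genes, Gad2 was the gene whose values were most like those of Gad1, and Slc32a1 came next. For Gad2 the closest gene was Slc32a1 and the next was Gad1. Among the genes most like Slc32a1, Gad2 was at rank 6 and Gad1 at rank 166. These ranks were 3 and 5 after the group means were subtracted, where the r of Slc32a1 with Gad2 was 0.78 as before and that with Gad1 was 0.76 against 0.68. The gene outside the family with the highest mean r to the 3 members was ENSRNOG00000028187, at 0.69. The 10 genes with the highest mean r carry no name in the sources used here. Among named genes, Pcp4l1, a relative of the Purkinje cell protein genes, had the highest mean r at 0.55 (rank 14), followed by Npas1, a transcription factor of GABA neurons, at 0.55 (rank 18), and Syt3, a synaptotagmin, at 0.52 (rank 33). The lowest mean r was -0.76, for ENSRNOG00000047466, and the lowest of a named gene was -0.51, for the sodium channel gene Scn7a. These are descriptions over 44 rats, ranked from the same values, and were not tested.

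Levels by group were asked next, from Gad1 to Gad2 to Slc32a1. In the comparisons a gene was called when the limma adjusted p was under 0.05 and the log2 fold change was beyond 0.2, and fold changes are differences of deposited values. Over 12 comparisons for each gene, 1 of 36 results was called. In the 9 comparisons of pairs of groups none was called (limma, 27 results), the lowest adjusted p was 0.103, 5 results had an unadjusted p under 0.05, and in all 27 the groups overlapped. Over all genes tested, 5.66% to 23.7% had an unadjusted p under 0.05 in these comparisons, and 0.0177% to 1.24% had groups that did not overlap, so the counts of members are near those of genes in general. The limma p-values set each difference against 1 spread between rats, estimated over all 6 groups and not over the groups compared alone. Groups differed in spread, with a Gad1 SD of 0.13 in saline empty and 0.44 in heroin H3.3WT rats.

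Gad1 ranged from 13.60 to 13.98 with a median of 13.75 in saline empty rats and from 13.25 to 14.36 with a median of 13.63 in heroin empty rats. It ranged from 13.61 to 14.30 (median 13.86) in saline H3.3WT, from 12.99 to 14.14 (median 13.74) in heroin H3.3WT, from 13.08 to 14.04 (median 13.75) in saline H3.3Q5A and from 13.10 to 14.04 (median 13.72) in heroin H3.3Q5A rats. The saline empty rats were close together, and each of the other groups held rats both below and above them except saline H3.3WT, whose lowest rat was level with theirs. The group means ran from 13.65 ± 0.44 (SD, n = 7) in heroin H3.3WT to 13.91 ± 0.28 (SD, n = 7) in saline H3.3WT rats, and this widest gap of 0.27 had a limma adjusted p of 0.477. In that order the other groups were heroin H3.3Q5A, saline H3.3Q5A, heroin empty and saline empty, and no neighbours differed beyond the spread between rats (lowest limma adjusted p of 0.651). None of the 12 results for Gad1 had an unadjusted p under 0.05. For heroin vs. saline in empty rats the Gad1 log2 fold change was -0.03 with a 95% interval of -0.37 to 0.31 (0.155% of genes called), and for heroin H3.3Q5A vs. heroin empty it was -0.05 with an interval of -0.38 to 0.27 (3.21% of genes called). For heroin vs. saline in H3.3WT rats, where 2.75% of genes were called, its interval was -0.61 to 0.08, and for H3.3Q5A vs. H3.3WT in saline rats, where 0.00886% were called, it was -0.56 to 0.13.

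Gad2 ranged from 13.89 to 14.80 with a median of 14.22 in heroin empty rats and from 13.18 to 14.38 with a median of 13.95 in heroin H3.3Q5A rats. It ranged from 13.71 to 14.32 (median 13.99) in saline empty, from 13.74 to 14.76 (median 13.88) in saline H3.3WT, from 13.71 to 14.58 (median 14.13) in heroin H3.3WT and from 13.61 to 14.49 (median 14.24) in saline H3.3Q5A rats. The lowest group mean was that of heroin H3.3Q5A rats, 13.85 ± 0.41 (SD, n = 8). The highest was that of heroin empty rats, 14.28 ± 0.33 (SD, n = 8). Between them, from low to high, came saline empty, saline H3.3WT, saline H3.3Q5A and heroin H3.3WT, and neighbours did not differ beyond their spread (lowest limma adjusted p of 0.854). The lowest and highest groups overlapped, although 7 of 8 heroin H3.3Q5A rats were below the heroin empty mean. Their log2 fold change was -0.43 (SE 0.16, 95% interval -0.75 to -0.12), with an unadjusted p of 0.00866 and an adjusted p of 0.103 from limma, and a two-sided exact permutation test over these 16 rats alone gave p = 0.0361. Gad2 was thus not called here, while 3.21% of all genes tested were called, 0.793% were called lower and 19.6% had an unadjusted p under 0.05. For heroin vs. saline in empty rats the Gad2 log2 fold change was 0.29 (95% interval -0.04 to 0.62, limma adjusted p = 0.353, 0.155% of genes called), and 6 of 8 heroin rats exceeded the mean of their saline controls.

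Slc32a1 ranged from 12.35 to 12.95 with a median of 12.49 in heroin H3.3Q5A rats, from 12.39 to 13.62 with a median of 12.87 in heroin empty rats, and from 12.51 to 13.46 with a median of 12.84 in heroin H3.3WT rats. In saline rats it ranged from 12.29 to 12.92 (median 12.64) with the empty vector, from 12.50 to 13.35 (median 13.04) with H3.3WT and from 12.47 to 13.36 (median 12.92) with H3.3Q5A. Heroin H3.3Q5A and saline empty rats held the low values, and no rat of either reached 13. As CPM computed from the recovered reads, the means were 147 in heroin H3.3Q5A and 160 in saline empty rats, and 185 to 197 in the other groups. The lowest mean of deposited values, 12.54 ± 0.20 (SD, n = 8), was that of heroin H3.3Q5A rats, and saline empty rats came next with 12.65 ± 0.25 (SD, n = 7), followed by heroin empty, heroin H3.3WT, saline H3.3Q5A and saline H3.3WT, the last at 12.97 ± 0.31 (SD, n = 7). Neighbours in that order did not differ beyond their spread (lowest limma adjusted p of 0.444).

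For heroin H3.3Q5A vs. saline H3.3Q5A rats the Slc32a1 log2 fold change was -0.40 (SE 0.15, 95% interval -0.71 to -0.09), and 7 of 8 heroin rats were below the saline mean. Its unadjusted p was 0.0122 and its adjusted p 0.132 by limma, where 0.505% of genes were called and 19.8% had an unadjusted p under 0.05. Against heroin H3.3WT rats the log2 fold change of the heroin H3.3Q5A rats was -0.40 (SE 0.15, limma adjusted p = 0.14), where 2.71% of genes were called and 17.4% had an unadjusted p under 0.05. Against heroin empty rats the Slc32a1 log2 fold change was -0.34 (SE 0.15, limma adjusted p = 0.183). Two-sided exact permutation tests over the rats of each pair gave p of 0.00948, 0.0159 and 0.0418 in the same order, before any adjustment. In saline rats the direction against empty was the other way, with Slc32a1 log2 fold changes of 0.29 for H3.3Q5A (SE 0.16, limma adjusted p = 0.258, 4.94% of genes called) and 0.32 for H3.3WT (SE 0.16, limma adjusted p = 0.296, 0% called and 16.8% with an unadjusted p under 0.05). Against H3.3WT, saline H3.3Q5A rats differed little, at -0.03 (SE 0.16, limma adjusted p = 0.969, 0.00886% of genes called). H3.3WT vs. empty in heroin rats gave 0.06 (SE 0.15, limma adjusted p = 0.965, 0% called and 5.66% with an unadjusted p under 0.05). The comparisons share groups and are not independent of each other.

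**Figure D2:**
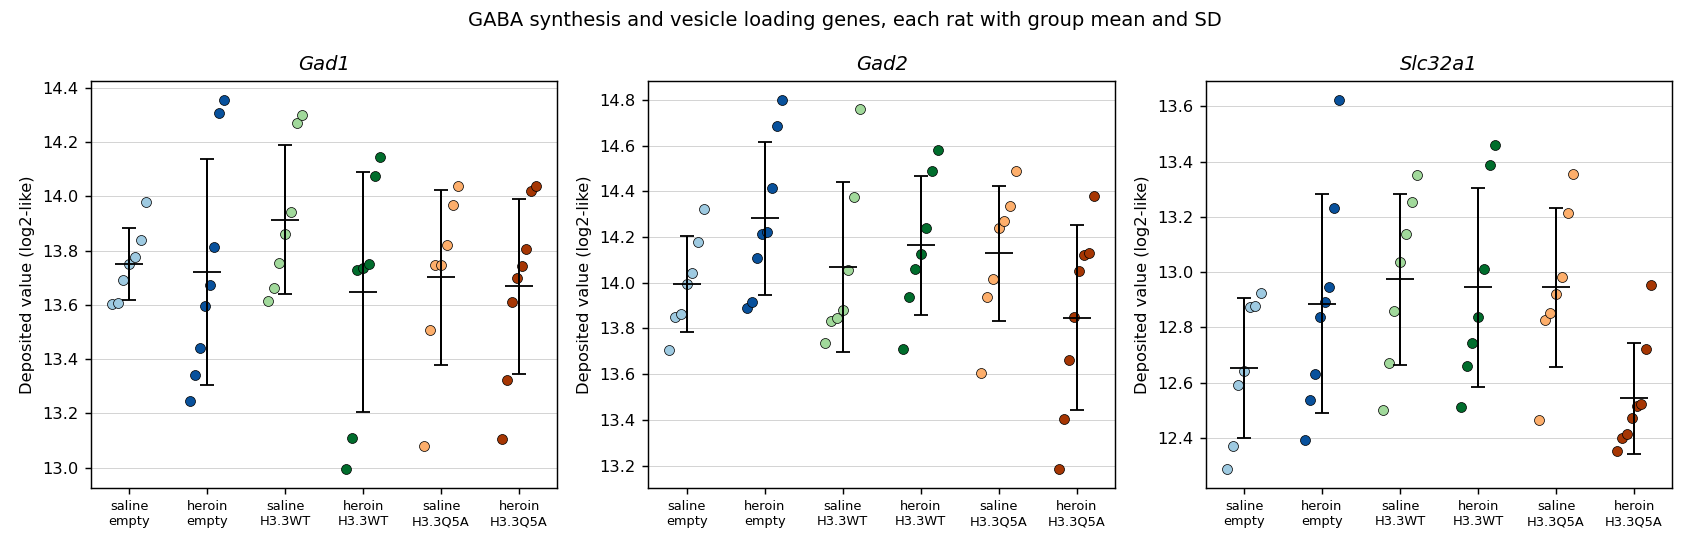
Deposited values (log2-like) of Gad1, Gad2 and Slc32a1 in each of the 44 rats, by group, with the group mean and SD as bars. Groups overlap for all 3 genes, and the heroin H3.3Q5A rats hold Slc32a1 values between 12.35 and 12.95, below those of many rats in other groups except saline empty.

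The heroin effect was then compared between vectors, as an interaction in the same fit. For Slc32a1 the heroin effect was 0.23 in empty and -0.40 in H3.3Q5A rats on the log2 scale, and the difference of -0.63 (SE 0.22, 95% interval -1.07 to -0.20) was called, with an adjusted p of 0.0416 from limma's moderated test. Of all genes tested, 14% were called in this interaction, 7.03% were called lower and 28.5% had an unadjusted p under 0.05, so the count of 1 in 3 members is set against a broad change. For Gad2 the difference was -0.57 (SE 0.23, 95% interval -1.03 to -0.10, limma adjusted p = 0.0894), and it was not called. For Gad1 it was -0.0047, with a 95% interval of -0.48 to 0.47 and a limma adjusted p of 0.993. The median over the 3 genes was -0.57, and over all tested genes it was 0.02.

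The Slc32a1 interaction lay close to the threshold. Leaving out each of the 30 rats of these groups in turn kept it between -0.71 and -0.53, with an adjusted p (limma) from 0.021 to 0.0831, and 17 of the 30 fits lost the call. These were the fits without saline empty rat 13, 22, 41 or 42, saline H3.3Q5A rat 28, 30, 31 or 33, heroin empty rat 7, 13 or 14, or heroin H3.3Q5A rat 24, 25, 26, 39, 40 or 43, and in them the value was between -0.64 and -0.53. The call was also lost with no filter on low values (adjusted p = 0.0517), with quantile normalization (value -0.53, adjusted p = 0.0756) and with the log2 number of reads as a covariate (value -0.62, adjusted p = 0.0796), all by limma.

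Against H3.3WT, the same interaction was -0.37 for Slc32a1 (SE 0.22, limma adjusted p = 0.347), -0.37 for Gad2 (SE 0.23, limma adjusted p = 0.383) and 0.23 for Gad1 (SE 0.24, limma adjusted p = 0.652), with 7.93% of genes called. The interaction of H3.3WT against empty was -0.26 for Slc32a1, -0.19 for Gad2 and -0.24 for Gad1 (limma adjusted p of 0.908 or more, 0% of genes called and 5.04% with an unadjusted p under 0.05). None of these 6 results was called.

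**Figure D3:**
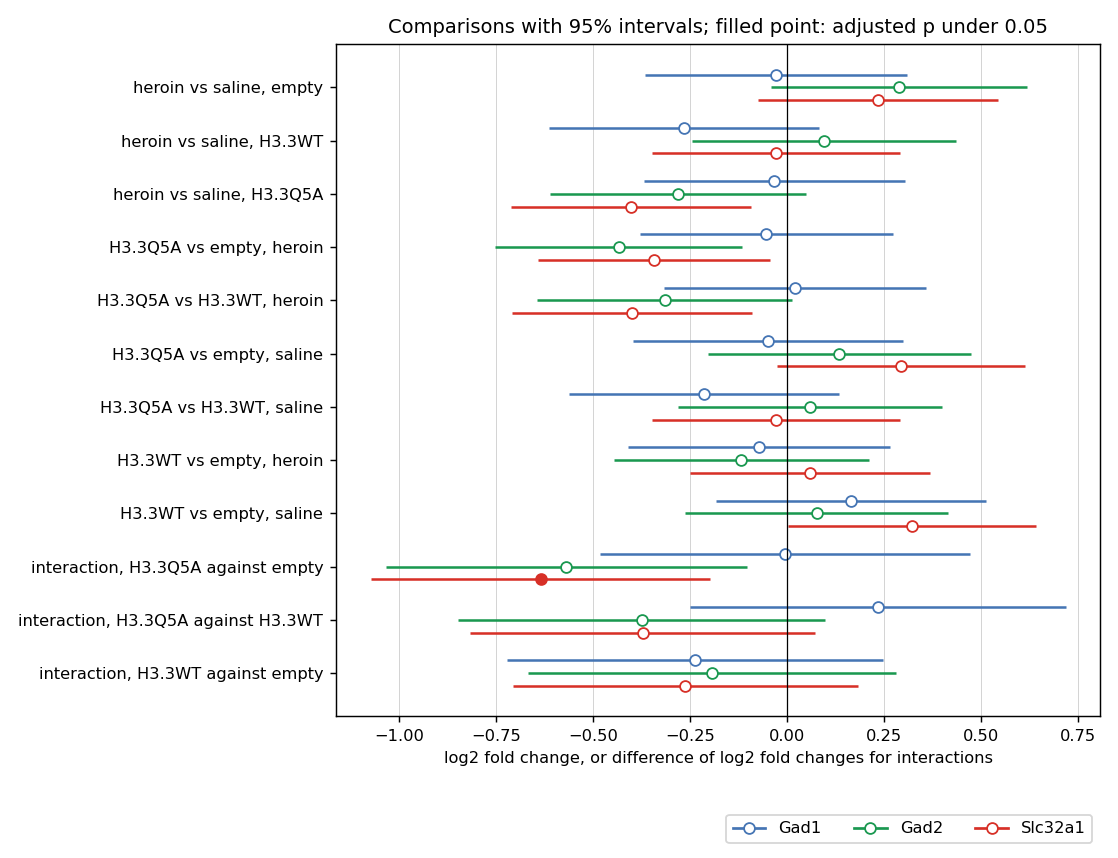
Log2 fold changes of the 3 genes in 9 comparisons of groups, and differences of log2 fold changes in 3 interactions, with 95% intervals from limma. The filled point, Slc32a1 in the interaction of H3.3Q5A against empty at -0.63, is the only called result of 36.

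The differences between the 3 genes within a rat were less variable than their levels. Gad2 minus Gad1 had an SD of 0.23 over all 44 rats against 0.33 for Gad1 and 0.34 for Gad2 alone, and any scaling of a library cancels in it. Slc32a1 minus Gad1 and Slc32a1 minus Gad2 had SDs of 0.27 and 0.23, against 0.34 for Slc32a1 alone. Gene lengths differ, so only the change of such a difference between groups carries meaning, not its sign. Gad2 minus Gad1 ranged from 0.07 to 0.34 with a median of 0.29 in saline empty rats and from 0.38 to 0.77 with a median of 0.58 in heroin empty rats, so the values of these groups did not overlap. In heroin H3.3Q5A rats it ranged from -0.14 to 0.34 with a median of 0.27, below every heroin empty rat.

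In heroin H3.3WT rats Gad2 minus Gad1 ranged from 0.32 to 0.94 and in saline H3.3WT rats from -0.13 to 0.49, an overlap. In saline H3.3Q5A rats it ranged from 0.27 to 0.53. Relative to Gad1, the Gad2 level was 1.25-fold higher in heroin empty than in saline empty rats and 1.28-fold higher in heroin H3.3WT than in saline H3.3WT rats, while it was 0.842-fold in heroin H3.3Q5A compared with saline H3.3Q5A rats. Of the 9 comparisons of groups, 2 had no overlap in Gad2 minus Gad1, and none in the 9 each for Slc32a1 minus Gad1 and Slc32a1 minus Gad2. Genes as a whole had values that did not overlap for 0.217% of genes between heroin empty and saline empty rats and for 0.146% between heroin H3.3Q5A and heroin empty rats, although those shares refer to levels and not to differences of a pair. These differences were looked at after the levels were known, so no test is given.

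The 3 groups with the highest mean of Gad2 minus Gad1, heroin empty, heroin H3.3WT and saline H3.3Q5A, also had the highest means of Slc32a1 minus Gad1, and both differences subtract the same gene. With the empty vector, Slc32a1 minus Gad1 averaged -1.10 ± 0.23 (SD, n = 7) after saline and -0.83 ± 0.19 (SD, n = 8) after heroin. With H3.3Q5A it averaged -0.76 ± 0.11 (SD, n = 7) after saline and -1.12 ± 0.26 (SD, n = 8) after heroin. All groups overlapped. Slc32a1 minus Gad2 differed less, with group means from -1.39 to -1.10.

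**Figure D4:**
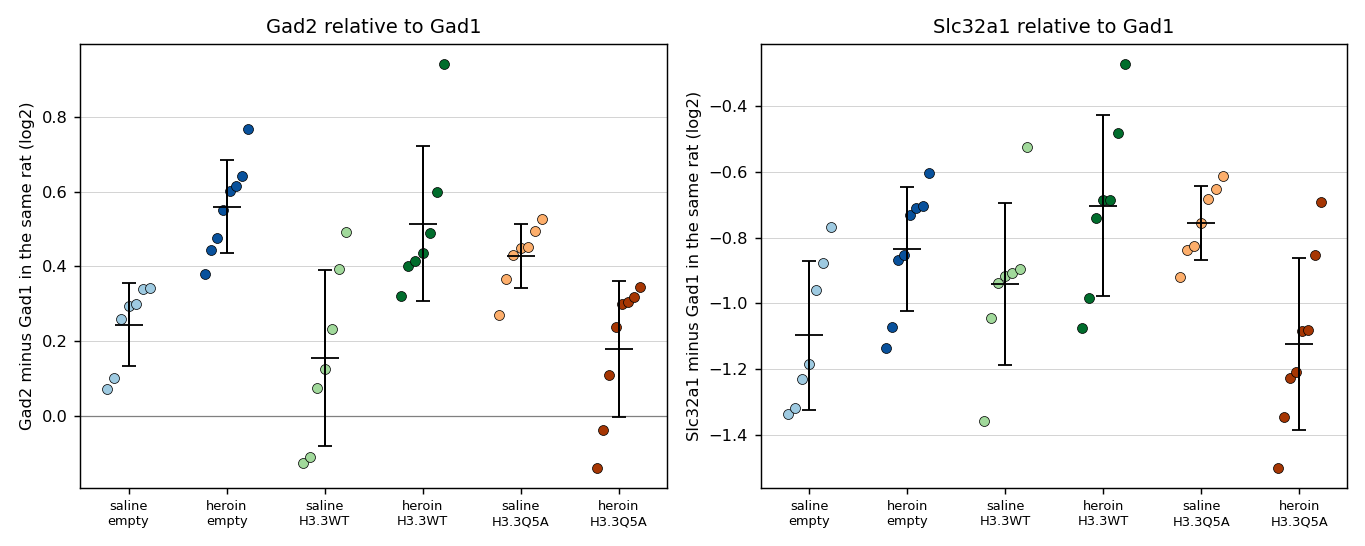
Gad2 minus Gad1 and Slc32a1 minus Gad1 in the same rat (log2), by group, with the group mean and SD as bars. Heroin empty rats lie between 0.38 and 0.77 for Gad2 minus Gad1, above all saline empty and all heroin H3.3Q5A rats, which reach 0.34 at most.

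Other genes of GABA transmission could be followed only in part, since few identifiers are paired with names. The names came from a table that the paper cites for its differentially expressed genes of these rats. Named genes may thus be preselected by the same data. How far the share called among them follows from that was not tested. Of 16 lists of transmission genes and cell type markers, none of the 8 listed genes of GABA reuptake and breakdown, of 19 GABA-A receptor subunits and of 26 genes of GABA neuron identity had a name. In the interaction of H3.3Q5A against empty, called lower means that the heroin effect was lower with H3.3Q5A than with the empty vector, not that a level fell by that amount. Slc6a9, a glycine transporter mainly of glia, was called lower in it, at -0.63 (SE 0.14, limma adjusted p = 0.00316). Of 4 named genes of the vesicle machinery, 2 were called lower, against 7.03% of all genes tested. Syt2, a calcium sensor of fast release, was at -2.21 (SE 0.41, limma adjusted p = 0.00122), from heroin effects of 1.14 in empty and -1.07 in H3.3Q5A rats that were not called themselves (limma adjusted p of 0.053 and 0.0533). Cplx1, a regulator of vesicle fusion, was at -1.51 (SE 0.32, limma adjusted p = 0.00239), from heroin effects of 0.75 and -0.75 (limma adjusted p of 0.0802 and 0.0685). The vesicle phosphoprotein gene Syn1, at -0.33 (limma adjusted p = 0.0621), and the synaptotagmin gene Syt4, at 0.11 (limma adjusted p = 0.635), were not called. Slc6a9, Syt2 and Cplx1 were also the named genes of these transmission lists called higher in saline H3.3Q5A vs. saline empty rats, at 0.42, 1.36 and 0.99 (limma adjusted p of 0.02, 0.0126 and 0.0184). In that comparison 3.23% of all genes were called higher.

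Markers of other cells moved in the same interaction as Slc32a1, and the limit on named genes given above holds for their counts. Of all genes tested, 14% were called in this interaction, 7.03% lower and 6.93% higher. Of 15 named genes of oligodendrocytes and myelin, out of 19 listed, 13 were called lower and none higher, with a median of -1.04. Mobp, a myelin protein, was at -1.19 (SE 0.25, limma adjusted p = 0.00221). Of 3 named neuronal genes, 2 were called lower, Elavl3, an RNA-binding protein, at -0.51 and Thy1, a surface protein, at -0.56 (limma adjusted p of 0.0014 and 0.00135). Of 4 named vascular and meningeal genes 1 was called higher, the collagen gene Col1a1 at 1.56 (limma adjusted p = 0.0356), and the 1 named microglial gene, Cx3cr1, was called lower at -0.50 (limma adjusted p = 0.0369). The 2 pituitary hormone genes Tshb and Cga were not called, at 1.46 and 2.71 (limma adjusted p of 0.135 and 0.0628), nor were Cspg4 and Gpr17 of oligodendrocyte precursors, at -0.29 and -0.38 (limma adjusted p of 0.0772 and 0.121), or Slc17a8 of glutamate neurons, at 0.31 (limma adjusted p = 0.431). Between the groups themselves, 12 of the 15 oligodendrocyte genes were called higher in saline H3.3Q5A vs. saline empty rats, where 3.23% of all genes were. In heroin H3.3Q5A vs. heroin empty rats 0 of the 15 were called (limma, lowest adjusted p of 0.0757) and all 15 were negative. There 2 of the 4 vascular genes were called higher, against 2.41% of all genes.

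Slc32a1 also varied with oligodendrocyte and neuronal markers from rat to rat. Its r with the mean of the 15 oligodendrocyte genes was 0.66 and rho 0.64 (permutation p of 1e-05 for both, adjusted p of 7.5e-05 over 15 relations), 0.59 without the 2 rats farthest from the median, and 0.56 after group means were subtracted (permutation p = 0.00025, adjusted p = 0.00255). For Gad2 that r was 0.40 and rho 0.38 (permutation adjusted p of 0.0156 and 0.0248), and 0.30 after group means were subtracted (permutation adjusted p = 0.106). For Gad1 it was 0.18 and rho 0.27 (permutation adjusted p of 0.304 and 0.112), and 0.25 after group means were subtracted (permutation adjusted p = 0.162). The differences between these correlations were not tested. The mean of the oligodendrocyte genes was lowest in saline empty (12.90 to 13.87) and heroin H3.3Q5A rats (12.79 to 13.89), which were also the groups lowest in Slc32a1, and it was 13.05 or more in every rat of the other groups.

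With the mean of the 3 neuronal genes, Slc32a1 had an r of 0.64 and rho of 0.64 (permutation adjusted p of 0.0001 for both), Gad2 of 0.45 and 0.47 (permutation adjusted p of 0.0049 and 0.00382) and Gad1 of 0.26 and 0.28 (permutation adjusted p of 0.136 and 0.109). Without the 2 rats farthest from the median these r were 0.54, 0.38 and 0.31. After group means were subtracted they were 0.55, 0.37 and 0.41 (permutation adjusted p of 0.0032, 0.0381 and 0.0336), and rho was 0.44, 0.31 and 0.32 (permutation adjusted p of 0.0225, 0.103 and 0.103). Taken singly, the neuronal genes had an r with Slc32a1 over rats of 0.25 for Eno2, 0.64 for Thy1 and 0.69 for Elavl3. With the mean of the 4 vascular genes Gad2 had an r of -0.49 and rho of -0.51 (permutation adjusted p of 0.00153 and 0.00135), and r was -0.49 without the 2 farthest rats and -0.46 after group means were subtracted (permutation adjusted p = 0.0174). With that mean Slc32a1 had an r of -0.29 and Gad1 of -0.05 (permutation adjusted p of 0.112 and 0.731). With the mean of the 4 vesicle genes r was 0.62 for Slc32a1, 0.56 for Gad2 and 0.23 for Gad1 (permutation adjusted p of 7.5e-05, 0.000262 and 0.21), and 0.54, 0.50 and 0.38 after group means were subtracted (permutation adjusted p of 0.00255, 0.00697 and 0.0336). That mean hides Syt4, which went the other way, with an r of -0.56 with Slc32a1, -0.19 with Gad2 and -0.35 with Gad1. Syt2, Syn1 and Cplx1 were positive with all 3 members. No gene of the oligodendrocyte, neuronal, vascular or vesicle lists was at 0 reads in any library. The part of these cell types in the Slc32a1 and Gad2 results was not tested. None of 13 listed markers of dopamine neurons and of 10 of astrocytes had a name, so the labelled tissue was not checked against them.

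**Figure D5:**
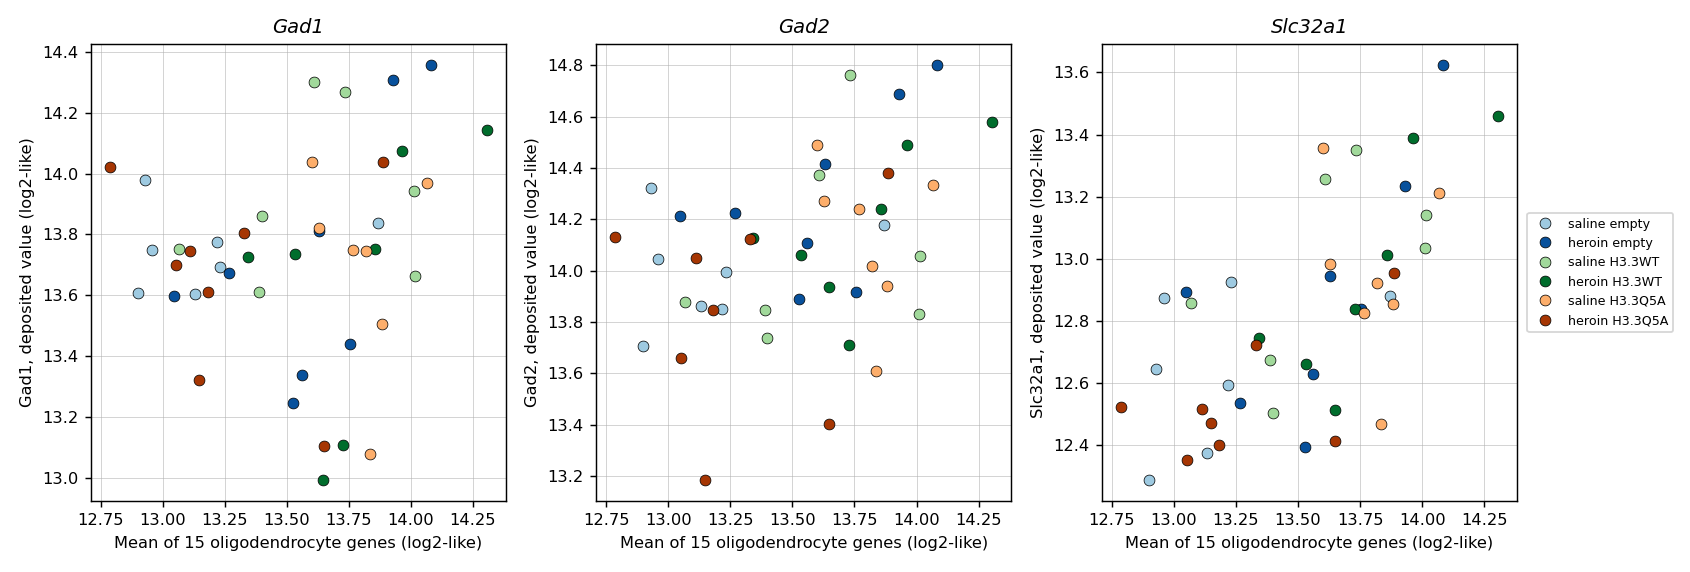
Deposited values of Gad1, Gad2 and Slc32a1 (log2-like, vertical) against the mean of 15 oligodendrocyte genes (log2-like, horizontal) in each of the 44 rats, coloured by group. Slc32a1 rises with the oligodendrocyte mean (r of 0.66), Gad2 less closely (0.40) and Gad1 least (0.18).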

How the data were processed

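The authors aligned reads to rn6 (Rnor_6.0) with HISAT2 2.1.0, counted them on Ensembl genes with featureCounts 2.0.1 and normalized the counts with DESeq2 2.11.40.6, per the labels. The values they deposited, for 32883 genes in 45 libraries, are counts after a variance-stabilizing transformation, near log2 in scale. Undoing it gave whole reads for 100% of values (within 0.05 reads). Whether RUVr, which the paper names, had been applied before cannot be told from this, since corrected counts can be rounded to whole numbers. The recovered reads may therefore be corrected counts.

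A gene entered if at least 7 of the 44 libraries exceeded the lowest value (22570 genes). All 6 groups were fitted together with limma 3.58.1 (R 4.3.3, intensity trend) and Benjamini-Hochberg adjustment over all genes. Correlations were tested with 100000 permutations in Python 3.11.15. No libraries of a group were duplicates (lowest chi-square per gene 11.1 in 140 pairs).

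Described were the 3 members, up to 6 called genes of each list by adjusted p, and the genes most like the members by mean r. Members and lists were chosen with earlier results of these data known. Other names came from 1998 readable rows of a supplementary table of the study, whose comparison columns by the authors were not used. The paper cites that table for its differentially expressed genes of heroin vs. saline rats. Having a name may therefore depend on these same data. Some listed genes are not reported here. Alternatives were other filters, scalings, thresholds and weights, 1 or 3 residual factors, a depth covariate, voom on the recovered reads, only the groups compared, both readings of the conflicting library, single-gene permutation tests and leaving out each rat.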

Additional observations from a re-analysis of the deposited data

Results flagged for a closer look

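The heroin effect on Slc32a1 differed between H3.3Q5A and empty rats by -0.63 on the log2 scale (limma adjusted p = 0.0416), which is a difference between groups under the same contrast. Its loss without single rats, with no filter, with quantile normalization and with the depth covariate is given above. The other scaling, median centring, kept the call (-0.76, limma adjusted p = 0.0138).

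The saline library with conflicting labels was in no comparison, and its values were above every saline empty rat for all 3 genes. Gad1 was 14.18 there against a highest saline empty value of 13.98, Gad2 was 14.71 against 14.32 and Slc32a1 was 13.26 against 12.92. Its labels do not name the empty vector, however. All 3 values were within the range of saline H3.3WT rats, whose highest were 14.30, 14.76 and 13.35. Against saline H3.3Q5A rats it was above the highest for Gad1 (14.04) and Gad2 (14.49) and within the range for Slc32a1 (highest 13.36). Over the 36 sets of values per group that were tested for a single rat far from the others, 0 stood out, where chance gives about 1.8.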

How the results depend on the processing

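All 3 correlations kept their direction under each alternative. Their permutation p kept its side of the threshold wherever it was computed, which was not done with single rats left out. When each rat was left out, r was from 0.64 to 0.71 for Gad1 and Slc32a1, 0.75 to 0.80 for Gad1 and Gad2 and 0.75 to 0.80 for Gad2 and Slc32a1. Under the other alternatives 516 values kept direction and call, 16 gained a call, 3 lost it and 11 changed sign. As 1 of 36 results had been called, most of the 516 were values that stayed uncalled. With 1 residual factor, voom, only the groups compared, only genes above the median or no fold-change threshold, all 36 results kept direction and call. Of these settings only voom could move a value. The others leave each fold change as it is and can alter only its SE, adjusted p or call.

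The Slc32a1 interaction of H3.3Q5A against empty was no longer called with no filter (-0.63), quantile normalization (-0.53) or the depth covariate (-0.62), and ranged from -0.71 to -0.53 over rats left out. Median centring shifted every gene by -0.12 in this interaction and in that against H3.3WT. Gad2 was called there with median centring (-0.69), array weights (-0.59), 3 residual factors (-0.57) or an adjusted p under 0.1 (-0.57), and without heroin H3.3Q5A rat 21 or saline H3.3Q5A rat 46 (range -0.66 to -0.47). In heroin H3.3Q5A vs. heroin empty rats Gad2 was called with median centring (-0.52), 3 residual factors (-0.43) or its unadjusted exact permutation p (-0.43), and without heroin H3.3Q5A rat 21 (range -0.51 to -0.34).

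Residual factors were taken from what the fit of the groups left over, so they cannot move a value and change only its SE. With 3 of them the SE of the Slc32a1 interaction against empty fell from 0.22 to 0.13. Calls gained this way, those of Gad2 above included, are therefore no separate support. With 3 residual factors Slc32a1 was also called in heroin H3.3Q5A vs. saline H3.3Q5A (-0.40), heroin empty (-0.34) and heroin H3.3WT rats (-0.40), in saline H3.3Q5A and H3.3WT vs. empty (0.29 and 0.32) and in the interaction against H3.3WT (-0.37). Its unadjusted exact permutation p was under 0.05 for the first 3 of these (-0.40, -0.34 and -0.40).

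Small values changed sign. With median centring these were Gad1 in heroin vs. saline empty (0.035), Gad1 in heroin H3.3Q5A vs. H3.3WT (-0.042), Slc32a1 in heroin vs. saline H3.3WT (0.034) and Slc32a1 in saline H3.3Q5A vs. H3.3WT (0.030). With quantile normalization they were Gad1 in heroin vs. saline H3.3Q5A (0.045), in heroin H3.3Q5A vs. empty (0.022) and in the interaction against empty (0.15), and with array weights Gad1 in heroin H3.3Q5A vs. H3.3WT (-0.0012). With the conflicting library as saline H3.3Q5A, Gad1 vs. saline empty was 0.011 and Slc32a1 vs. saline H3.3WT was 0.011, and with it as saline H3.3WT, Gad2 in saline H3.3Q5A vs. H3.3WT was -0.021.

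Leaving out single rats also turned the sign of Gad1, which then ranged from -0.12 to 0.040 in heroin vs. saline empty, -0.10 to 0.055 in saline H3.3Q5A vs. empty, -0.11 to 0.086 in the interaction against empty, -0.14 to 0.048 in heroin vs. saline H3.3Q5A, -0.12 to 0.037 in heroin H3.3Q5A vs. empty, -0.16 to 0.036 in heroin H3.3WT vs. empty and -0.089 to 0.10 in heroin H3.3Q5A vs. H3.3WT. So it was for Gad2, which ranged from -0.040 to 0.13 in saline H3.3WT vs. empty and -0.0012 to 0.17 in saline H3.3Q5A vs. H3.3WT. The same held for Slc32a1, which ranged from -0.11 to 0.043 in heroin vs. saline H3.3WT, -0.11 to 0.052 in saline H3.3Q5A vs. H3.3WT and -0.028 to 0.16 in heroin H3.3WT vs. empty. The causes were not tested.

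No paired analysis was possible because each rat received a single drug and a single vector and gave a single library. A rat number that recurs between groups was taken as a different rat. Each gene had 3669 or more reads in every library, and the comparisons of groups had standard errors of 0.15 to 0.17 (log2).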
